A study of Mus musculus with 58 samples.

Results

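The genes of the proteasome were described in somatosensory cortex of mice about 1 month after repeated mild head injury, with and without treatment by a p38 MAPK inhibitor. Members were all rows of the count table whose gene name begins with Psma, Psmb, Psmc, Psmd, Psme, Psmf or Psmg followed by a digit, which gave 42 of 9636 genes. The name rule uses no measured difference, though this set of genes was chosen with earlier results of these data known. By role they were 7 alpha-ring subunits, 4 beta-ring subunits without a catalytic site, 3 constitutive catalytic subunits, 1 inducible catalytic subunit, 6 ATPases, 11 non-ATPase subunits of the regulatory particle, 5 assembly chaperones and 5 activators or inhibitors. The testis, inducible, thymic and chaperone members Psma8, Psmb8, Psmb9, Psmb11, Psmg3 and Psmg4 were not analysed here.

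The proteasome is the barrel-shaped protease that degrades most ubiquitin-tagged proteins of the cell. Its core particle is a stack of alpha and beta rings with the proteolytic sites inside, and a regulatory particle at either end recognises ubiquitin, unfolds the substrate with a ring of ATPases and threads it into the core. In brain the complex is known for turning over synaptic proteins, and its genes share a transcription factor, NFE2L1, that raises their transcription when proteasome activity falls.

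RNA was sequenced from 58 libraries of C57BL/6J mice of both sexes, aged 2 to 4 months when the procedures were made, in 4 cohorts per sex. Injured animals had 5 once-daily closed head injuries (5xCHI) and sham animals had 5 once-daily sham procedures, each followed 30 min later by an intraperitoneal injection. The injection held SB239063 (SB, 20 mg/kg), a small-molecule inhibitor of the stress kinase p38 MAPK, or its saline vehicle, so every animal was handled and injected. The groups were 5xCHI with SB (11 females, 8 males), 5xCHI with vehicle (12 females, 8 males), sham with SB (3 females, 2 males) and sham with vehicle (9 females, 5 males), and sham SB animals came from 2 of the cohorts of each sex. Tissue was taken at the chronic time, about 18 or 34 days after the last procedure, and the labels do not say which animal belongs to which day.

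Library totals ran from 28316280 to 49158277 counts over the listed genes, and the members together took 85051 to 185110 counts per library. No member had fewer than 197 counts in any library. The spread between libraries holds animal, library and counting differences together. Markers of excitatory neurons (9 of 9 listed genes), astrocytes (7 of 7), oligodendrocytes (8 of 8), microglia (9 of 10) and vessels (7 of 7) were measured. The 8 leukocyte and blood markers were not analysed here. In tissue of mixed cells, fewer cells of a type and less RNA per cell cannot be told apart.

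Levels were compared between members as CPM (counts scaled to library size with TMM factors) per kilobase of transcript, because a longer transcript yields more counts. The plot of levels by role shows that the subunits of the assembled particle were abundant and the assembly chaperones scarce. The members' median was 51.0 CPM per kilobase, against 17.4 over all 9550 genes with a known length, and 35 of 42 members lay at or above that median. The ATPases, which unfold substrates, had a median of 79.9 and held the highest members, Psmc5 at 128 ± 18.1 and Psmc1 at 118 ± 14.8 CPM per kilobase (SD, n = 58). The catalytic subunits had a median of 77.7, with Psmb7 at 86.9 ± 11.2, Psmb6 at 77.7 ± 10.6 and Psmb5 at 52.3 ± 6.55 CPM per kilobase. These genes encode the trypsin-like, the caspase-like and the chymotrypsin-like site of the core. The intervals of mean ± SD of Psmb7 and Psmb6 overlapped, and Psmb5 lay below both by more than its SD.

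**Figure D1:**
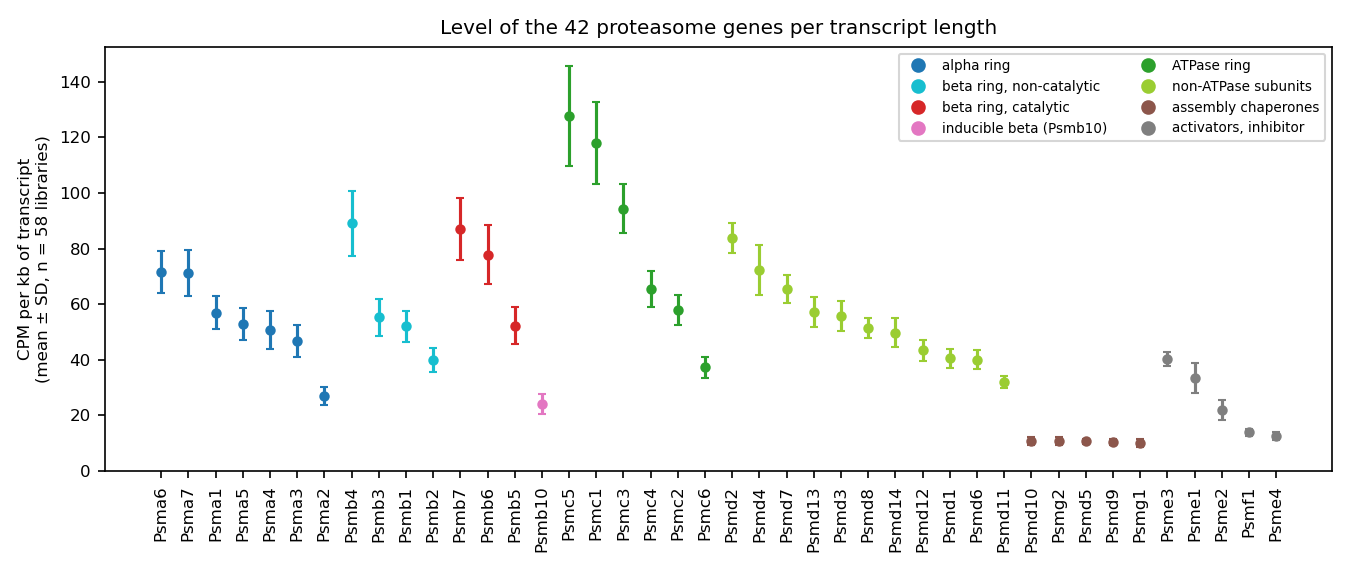
Mean level of each member in CPM per kilobase of transcript, with SD over 58 libraries, ordered by role and level. The 5 assembly chaperones lie between 10.0 and 10.9, and Psmc5 is highest at 128.

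The inducible catalytic subunit Psmb10, which replaces Psmb7 in the immunoproteasome, stood at 24.3 ± 3.59 CPM per kilobase. The alpha-ring subunits spanned 27.1 in Psma2 to 71.7 in Psma6, a 2.64-fold range, although the assembled ring holds each of them in equal number. The non-ATPase subunits had a median of 51.4, and their highest member was Psmd2, a scaffold of the regulatory particle, at 83.8 ± 5.44. The chaperones Psmd5, Psmd9 and Psmd10, which help build the ATPase ring, and Psmg1 and Psmg2, a pair that builds the alpha ring, spanned only 10.0 to 10.9 CPM per kilobase. Neighbours among these 5 differed by less than their SD. Among the activators, Psme3 (nuclear PA28 gamma) had 40.2 ± 2.55, Psme1 and Psme2 (the interferon-inducible PA28 alpha and beta) had 33.5 ± 5.50 and 22.0 ± 3.59, and Psme4, a nuclear activator, had 12.6 ± 1.52. Lengths came from the GRCm38 annotation GENCODE M21 and not from the submitters' own. In that annotation 9 members (Psma4, Psma5, Psmb5, Psmb7, Psmc3, Psmd1, Psmd3, Psmd13 and Psme1) share exon sequence with another gene, and since the sources used here do not give the strand setting of the counting, their counts are uncertain to that extent.

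The steadiest members between libraries were Psme3, Psmd11 and Psmd2, with coefficients of variation of 6.34%, 6.42% and 6.49%. The most variable were Psme1 at 16.4%, Psme2 at 16.3% and Psmb10 at 14.8%. These 3 are the members induced by interferon in immune settings. The members' median coefficient of variation was 10.6%, against 12.4% over all genes with a length.

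Promoter windows from RefSeq (GRCm38.p6, 250 bases before to 50 after the annotated start) were found for 35 members, in 38 windows. They were searched on both strands for TGACNNNGC, the core of the antioxidant-type element that NFE2L1 and NFE2L2 bind, because NFE2L1 is the known regulator of these genes. It was found in 6 of 38 windows (15.8%), those of Psmb5, Psmb6, Psmc6, Psmd9, Psmd12 and Psme4, against 14.1% of windows of genes in the table and 12.4% of all promoters. CCAAT was found in 31.6% of member windows, against 37.0% and 37.4%, and GGGCGG in 57.9%, against 64.0% and 35.7%. None of the 3 motifs was far commoner in member windows than in those of the table's genes. The 3 stretches of 60 upstream bases that hold the element on the gene's own strand are shown for a pair of catalytic subunits and a chaperone, with the element in capitals: Psmb5 at chr14:54618009-54618068 on the minus strand, Psmb6 at chr11:70525297-70525356 and Psmd9 at chr5:123228130-123228189 on the plus strand.
Psmb5: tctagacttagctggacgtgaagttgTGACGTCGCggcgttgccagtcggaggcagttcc
Psmb6: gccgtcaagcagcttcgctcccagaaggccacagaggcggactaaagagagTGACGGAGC
Psmd9: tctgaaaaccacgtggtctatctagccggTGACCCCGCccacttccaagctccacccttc
A match of letters is not a binding site, and no binding was measured here. Of these members, Psmb5, Psmb6 and Psmd9 averaged 39.8, 62.0 and 26.9 CPM over the 58 libraries.

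The summed level of the 42 members differed little between conditions. It was 3204 ± 161 CPM in 5xCHI SB mice (n = 19), 3328 ± 201 in 5xCHI vehicle mice (n = 20), 3218 ± 44.3 in sham SB mice (n = 5) and 3428 ± 292 in sham vehicle mice (SD, n = 14). The ranges overlapped throughout: 2978 to 3612 CPM in 5xCHI SB, 3014 to 3919 in 5xCHI vehicle, 3146 to 3257 in sham SB and 3101 to 3888 in sham vehicle mice. Above 3500 CPM lay 9 libraries, namely 1 of 19 5xCHI SB, 3 of 20 5xCHI vehicle, 0 of 5 sham SB and 5 of 14 sham vehicle libraries, from both sexes and several cohorts, as the plot of summed levels shows.

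**Figure D2:**
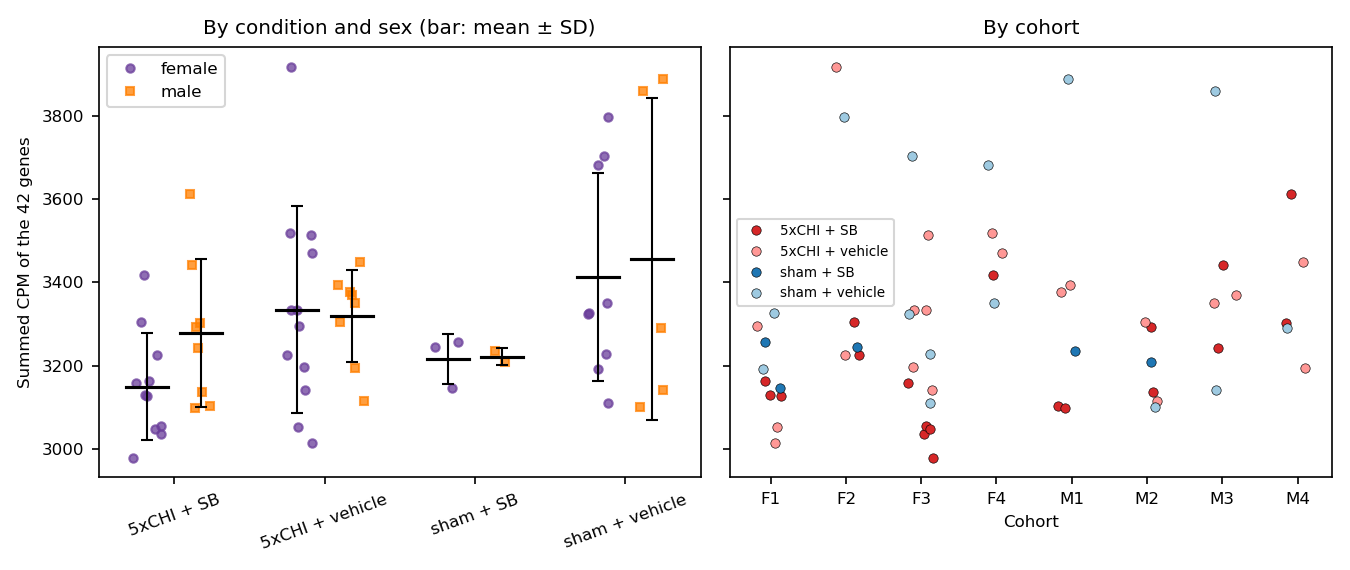
Summed CPM of the 42 members in each library, by condition and sex (left, bars are mean ± SD) and by cohort (right, colours are conditions). The sham SB libraries lie between 3146 and 3257, inside the range of each other condition.

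Among the catalytic subunits, Psmb5 ran from 33.3 through a median of 38.1 to 44.2 CPM in 5xCHI SB, from 32.4 through 38.4 to 52.9 in 5xCHI vehicle and from 32.7 through 39.4 to 59.0 in sham vehicle mice. Its sham SB values were 37.9, 42.3 and 45.4 in females and 36.3 and 40.2 CPM in males. The conditions all overlapped for Psmb5, and its highest value was 1 female sham vehicle library. Psmb6 ran from 48.2 through 58.7 to 70.9 CPM in 5xCHI SB, from 51.6 through 61.6 to 79.8 in 5xCHI vehicle and from 51.4 through 60.8 to 89.6 in sham vehicle mice, with sham SB values of 57.3, 62.9 and 70.5 in females and 55.9 and 56.7 in males. Psmb7 ran from 82.7 through 90.7 to 123 CPM in 5xCHI SB, from 81.3 through 104 to 132 in 5xCHI vehicle and from 84.6 through 102 to 137 in sham vehicle mice, with sham SB values of 104, 84.7 and 95.9 in females and 95.1 and 93.2 in males. The lower ends of the 3 larger groups nearly coincided for Psmb7, their ranges overlapped almost wholly, and the median was lowest in 5xCHI SB. Psmb10 ran from 25.7 through 30.1 to 38.6 CPM in 5xCHI SB, from 26.7 through 30.9 to 37.7 in 5xCHI vehicle and from 26.0 through 31.6 to 46.6 in sham vehicle mice, with sham SB values of 27.6, 32.8 and 40.0 in females and 28.2 and 32.2 in males. Its medians in those 3 groups differed by less than the SD within any of them.

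In the regulatory particle, Psmc5, the ATPase with the highest level per length, ran from 135 through 153 to 212 CPM in 5xCHI SB, from 139 through 171 to 232 in 5xCHI vehicle and from 144 through 173 to 230 in sham vehicle mice. Its sham SB values were 177, 158 and 154 in females and 147 and 152 CPM in males. The conditions overlapped for Psmc5, and both vehicle groups had the higher medians. Psmd4, a receptor for ubiquitin chains, ran from 82.7 through 91.5 to 108 CPM in 5xCHI SB, from 81.5 through 93.9 to 115 in 5xCHI vehicle, from 84.0 through 92.4 to 99.3 in sham SB and from 84.1 through 94.1 to 138 in sham vehicle mice. Psmd14, the deubiquitinase that strips the chain before entry, averaged 74.9 ± 8.10 in 5xCHI SB, 77.8 ± 8.64 in 5xCHI vehicle, 74.0 ± 5.05 in sham SB and 78.6 ± 7.94 CPM in sham vehicle mice. Psmd2, a scaffold subunit of the base, averaged 246 ± 9.95 in 5xCHI SB, 248 ± 15.3 in 5xCHI vehicle, 255 ± 14.1 in sham SB and 249 ± 23.8 CPM in sham vehicle mice. The condition means of Psmd14 and Psmd2 lay within 1 SD of each other, and Psmd2 spread most widely in sham vehicle mice.

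The PA28 pair, which caps the core and is induced by interferon, stood below the members' median level per length and above that of all genes. Psme1 averaged 23.6 ± 4.36 in 5xCHI SB, 23.8 ± 2.55 in 5xCHI vehicle, 20.9 ± 1.23 in sham SB and 25.0 ± 5.10 CPM in sham vehicle mice. Psme2 averaged 19.0 ± 2.79 in 5xCHI SB, 19.6 ± 2.52 in 5xCHI vehicle, 17.4 ± 2.11 in sham SB and 20.2 ± 4.42 CPM in sham vehicle mice. Psme3 had 107 ± 5.12 in 5xCHI SB, 107 ± 6.77 in 5xCHI vehicle, 112 ± 7.33 in sham SB and 105 ± 8.30 CPM in sham vehicle mice. In sham SB mice Psme1 and Psme2 thus had their lowest mean and Psme3 its highest. These means were not adjusted for cohort, and sham SB mice came only from cohorts F1, F2, M1 and M2. The part of cohort in these means was not tested. For SB in sham mice the fitted difference of Psme3 was 0.041, and none of the 3 genes had an unadjusted p under 0.05.

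Injury was tested as 5xCHI vehicle against sham vehicle, averaging the effect over females and males, and no proteasome gene passed the test. With edgeR's quasi-likelihood test and Benjamini-Hochberg adjustment over 9636 genes, 0 genes were called (0%), as with DESeq2. At an unadjusted p under 0.05 the test found 169 genes (1.75%), and DESeq2 found 182. Among the members 1 of 42 had such a p, Psmb2, which was lower. Without male sham vehicle replicate 5 the count was 9 of 42 members and 311 genes. With the transcript length trend removed it was 0 members, against 1.53% of all genes. Without the 4 libraries described below it was 1 member, against 1.12% of all genes. That member was Psmf1, which was higher, and not Psmb2. The members' direction was mostly downward: 36 of 42 had a log2 fold change below 0, against 50.6% of all genes, with a median of -0.048 against -0.0007 over all genes. That median corresponds to 0.967 times the sham vehicle level, and the median standard error of a member was 0.051 on the log2 scale.

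Psmb2, a structural beta-ring subunit, ran from 27.5 through a median of 35.1 to 40.5 CPM in 5xCHI vehicle mice and from 31.9 through 37.1 to 42.7 in sham vehicle mice. Its log2 fold change was -0.10 ± 0.050 (SE, unadjusted p = 0.0427, adjusted p = 0.9999 by edgeR), and the groups overlapped over most of their range. With the transcript length trend removed the log2 fold change of Psmb2 was -0.058. The other members with the smallest p below 0 were Psmb4 in the beta ring (-0.11 ± 0.062), Psma7 in the alpha ring (-0.084 ± 0.048) and the chaperone Psmd9 (-0.091 ± 0.055). Without the 4 libraries described below Psmb4 and Psma7 had the opposite sign, at 0.0057 and 0.0036. The largest difference of a core subunit was that of the inducible Psmb10, -0.12 ± 0.072, whose 95% interval ran from -0.26 to 0.029. The constitutive catalytic subunits had -0.067 ± 0.060 in Psmb5, -0.076 ± 0.062 in Psmb6 and -0.037 in Psmb7. By role, all 4 structural beta subunits (median -0.085), all 6 ATPases (-0.074) and 6 of 7 alpha subunits (-0.038) lay below 0.

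The activators and the inhibitor did not share that direction: 3 of 5 lay above 0. Their median transcript length was 2596.5 nucleotides, against 1398.5 over the 42 members. In the 5 length classes described below, all genes of the longest had a median of 0.030 for injury and those of the shortest -0.041. The part of length in this contrast of roles was not tested. Psmf1, named for inhibiting the core in vitro and known in mice to adapt proteasomes to axonal transport, had 0.061 ± 0.037 (unadjusted p = 0.102). It ran from 32.4 through 36.3 to 40.9 CPM in 5xCHI vehicle mice and from 29.7 through 34.3 to 41.1 in sham vehicle mice, so the groups overlapped almost wholly. Without the 4 libraries described below Psmf1 had 0.10 ± 0.034 (unadjusted p = 0.0041, adjusted p = 0.9999 by edgeR), the smallest p of a member in that fit. Psme3 had 0.023, Psme4 0.021 and the chaperone Psmd5 0.038. The sign of Psme4 was negative without those 4 libraries (-0.036) and after removal of the transcript length trend (-0.019).

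SB was tested in injured mice as 5xCHI SB against 5xCHI vehicle. This comparison shares its 5xCHI vehicle libraries with the injury comparison, so their values are not independent. No gene was called by edgeR (0% of 9636) or by DESeq2, while 680 genes (7.06%) had an unadjusted p under 0.05 by edgeR and 705 by DESeq2. Among the members 4 of 42 had one, all lower with SB, and 3.64% of all genes did so in that direction. Of the 42 members 39 lay below 0, against 47.8% of all genes, with a median of -0.048 against 0.0034. The 4 were Psma1 in the alpha ring, Psmb1 in the beta ring, the catalytic Psmb7 and the chaperone Psmg1.

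Psma1 ran from 44.7 through a median of 58.9 to 69.5 CPM in 5xCHI SB mice and from 51.6 through 63.9 to 78.0 in 5xCHI vehicle mice. Its log2 fold change was -0.10 ± 0.041 (SE, unadjusted p = 0.0163, adjusted p = 0.663 by edgeR). Psmb7, whose values by condition are given above, had -0.11 ± 0.047 (unadjusted p = 0.0249), and Psmb1 had -0.085 ± 0.042. Psmg1, the partner of Psmg2 in alpha-ring assembly, ran from 6.86 through 8.23 to 10.6 CPM in 5xCHI SB mice and from 7.66 through 9.43 to 11.9 in 5xCHI vehicle mice, with a log2 fold change of -0.13 ± 0.060 (unadjusted p = 0.0321). The other catalytic subunits had -0.018 ± 0.054 in Psmb5 and -0.064 ± 0.056 in Psmb6, and Psmb10 had -0.0068 ± 0.065. Only Psmd3 (0.024), Psmd9 (0.016) and Psmf1 (0.014) lay above 0, and Psmf1 was at -0.00089 without the 4 libraries described below.

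Oligodendrocyte markers moved with this comparison. All 8 of 8 had a lower level with SB, with a median log2 fold change of -0.37 and an unadjusted p under 0.05 for each, though none was called. Their summed level ranged from 2465 to 8668 CPM in 5xCHI SB mice and from 5162 to 12318 CPM in 5xCHI vehicle mice, and no marker was at 0. The part of this difference in the members' values was not tested.

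In 5xCHI SB against sham vehicle mice, which reuses both groups' libraries from the comparisons above, 39 of 42 members lay below 0, against 49.8% of all genes. The median was -0.097, against 0.0004 over all genes, or 0.935 times the sham vehicle level. No gene was called by edgeR (0%) or DESeq2, with 1211 genes (12.6%) at an unadjusted p under 0.05 by edgeR and 1271 by DESeq2. Among the members 21 of 42 had one, 20 of them lower, a direction in which 6.93% of all genes did. That count was 9 without the 4 libraries described below, 8 with the length trend removed and 6 without male sham vehicle replicate 4. The smallest adjusted p of a member was 0.329 by edgeR.

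Psmb2 ran from 25.8 through 32.7 to 38.7 CPM in 5xCHI SB mice, against 31.9 through 37.1 to 42.7 CPM in sham vehicle mice, with a log2 fold change of -0.17 ± 0.050 (SE, unadjusted p = 0.00109). Psmg1 had -0.21 ± 0.067 (unadjusted p = 0.0023) and the ATPase Psmc5 -0.17 ± 0.056. With the length trend removed Psmb2 had -0.088, and Psmc5, then the member of smallest p, had -0.11 ± 0.039. Psmg1 had -0.13 with that trend removed and the 4 libraries left out. Of the 20, the ATPases gave 5 of their 6 members, with 3 of 4 structural beta subunits, 2 of 3 constitutive catalytic subunits, 3 of 7 alpha subunits, 3 of 5 chaperones and 4 of 11 non-ATPase subunits. The single member above 0 at an unadjusted p under 0.05 was the inhibitor Psmf1, 0.075 (p = 0.0467), where 5.64% of all genes were higher at such a p. Oligodendrocyte markers were again lower (8 of 8, median -0.30), with a summed level from 2465 to 8668 CPM in 5xCHI SB and from 3177 to 20476 CPM in sham vehicle mice, and vessel markers were higher (7 of 7, median 0.13). Their part in the members' values was not tested. The plot of differences by gene shows these 3 comparisons side by side.

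**Figure D3:**
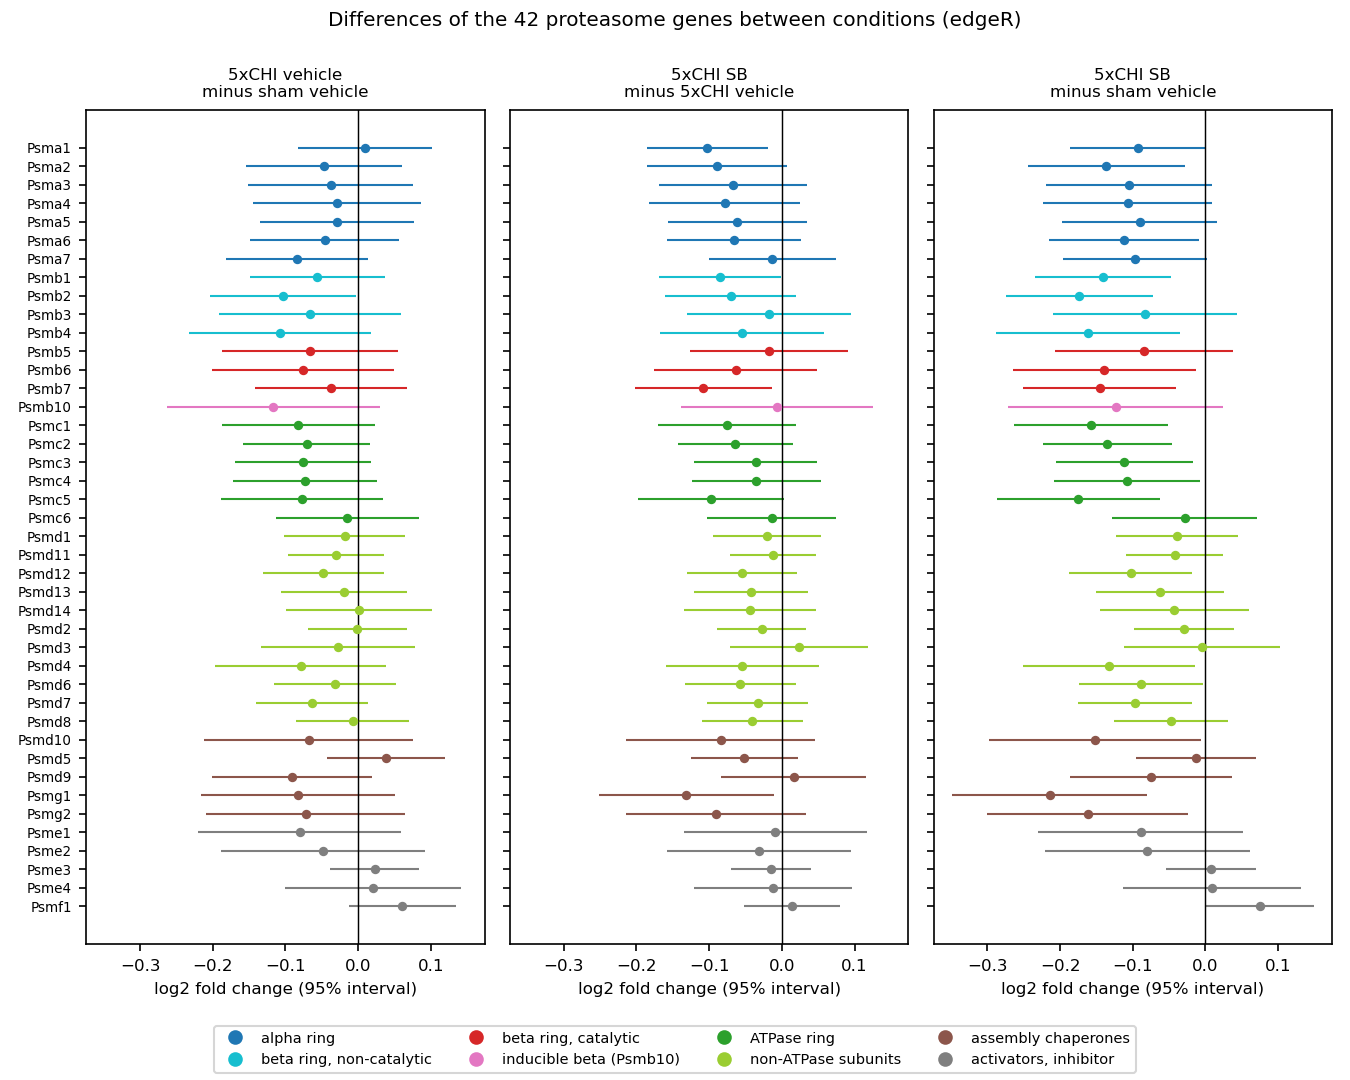
Log2 fold change of each member with its 95% interval (edgeR) in 3 comparisons that share libraries, ordered by role. Intervals exclude 0 for 1, 4 and 21 of the 42 members from left to right, and no member passes adjustment over all genes.

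In sham mice, SB against vehicle rested on 5 against 14 libraries. Of the 42 members 35 lay below 0, against 52.9% of all genes, with a median of -0.11 against -0.0087 and a median standard error of 0.080. No gene was called (0%), and 676 genes (7.02%) had an unadjusted p under 0.05, among them 1 member, the regulatory-particle subunit Psmd6 (-0.14 ± 0.065, p = 0.0427). These counts were 1227 genes and 7 members with no cohort term. Left-out libraries gave as few as 149 genes (male sham SB replicate 2) and as many as 965 genes and 9 members (male sham vehicle replicate 5). DESeq2 called 0 genes, with 703 genes and 2 members at an unadjusted p under 0.05. Psmd6 had 54.6, 53.0 and 54.8 CPM in the female and 50.2 and 52.1 CPM in the male sham SB libraries, against 49.1 through a median of 56.9 to 72.4 CPM in sham vehicle mice. The sham SB values thus lay within the sham vehicle range. The interaction of injury and SB, which asks whether SB acted differently in injured and sham mice, called 0 genes (0%) by edgeR and DESeq2. It had an unadjusted p under 0.05 for 133 genes (1.38%), 144 with DESeq2, and for no member. Its member median was 0.044, with 10 of 42 members below 0 against 47.8% of all genes. The members of smallest p above 0 were the chaperone Psmd9 (0.18 ± 0.099) and the alpha-ring subunit Psma7 (0.14). Below 0 they were the chaperone Psmd5 (-0.12 ± 0.072) and the activator Psme3 (-0.056).

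Sexes were then taken apart. In females, SB after injury called 0 genes (0%) by edgeR and gave a member median of -0.082 with 37 of 42 below 0, against 47.3% of all genes. Of all genes 7.21% had an unadjusted p under 0.05, and of the members 10 did, all lower, a direction that 3.91% of all genes shared. Those 10 members became 16 without the 4 libraries described below, 5 with the length trend removed (median -0.043) and 3 with both steps. The alpha-ring chaperones had the largest of the named differences: Psmg1 had -0.23 ± 0.077 (p = 0.00362, adjusted p = 0.693 by edgeR) and Psmg2 -0.21 ± 0.079. With both steps they had -0.11 and -0.12. Psmg2 ran from 8.68 through 11.4 to 13.0 CPM in female 5xCHI SB mice and from 10.2 through 12.7 to 17.3 CPM in female 5xCHI vehicle mice. In males the median was -0.013 with 25 of 42 below 0, against 48.1% of all genes, and no member had an unadjusted p under 0.05 (0% called over all genes and 1.88% with such a p). Male Psmg2 averaged 13.1 ± 1.01 CPM in 5xCHI SB and 12.9 ± 1.43 CPM in 5xCHI vehicle mice (SD, n = 8 each). The test of the male minus the female SB difference called 0 genes (0%), had an unadjusted p under 0.05 for 88 genes (0.913%) and for no member, and was nearest in Psmg2 (0.24, unadjusted p = 0.0558). A difference between the sexes in the response to SB was therefore not shown. DESeq2 called 0 genes in each of these 3 comparisons, with 728, 197 and 90 genes at an unadjusted p under 0.05.

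For injury, 30 of 42 members lay below 0 in females (median -0.042, all genes 55.0%) and 33 in males (median -0.061, all genes 49.8%). No gene was called in either sex or for their difference (0%) by edgeR or DESeq2. Unadjusted p under 0.05 were found for 303 genes (3.14%) and 0 members in females, for 342 genes (3.55%) and 1 member in males, and for 591 genes (6.13%) and 1 member for the difference. The 2 members were Psmd9 in males (-0.18 ± 0.086, p = 0.0469) and the regulatory-particle subunit Psmd3 for the difference (-0.21 ± 0.11, p = 0.0483). DESeq2 found 311, 373 and 622 genes at that level. Without the 4 libraries described below there were 1504 genes and 3 members in females, 163 genes and 0 members in males, and 1400 genes and 2 members for the difference. With each library left out, the male counts ran from 83 genes (without sham vehicle replicate 2) to 738 genes (without sham vehicle replicate 1), and reached 6 members without sham vehicle replicate 5. In females they reached 681 genes and 2 members without sham vehicle replicate 1, and for the difference 1275 genes without that library, 262 genes without male sham vehicle replicate 2 and 4 members without male sham vehicle replicate 1. Male Psmd9 averaged 25.9 ± 2.18 CPM in 5xCHI vehicle (n = 8) and 29.3 ± 3.21 CPM in sham vehicle mice (n = 5).

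The members' direction was not the same in every cohort. For injury the members' median was below 0 in 6 of 8 cohorts and ran from -0.24 in M1 to 0.050 in M2. For SB in injured mice it was below 0 in 5 of 8, from -0.15 in F2 to 0.066 in M4, and for injury with SB in 6 of 8, from -0.33 in M1 to 0.059 in M4. Each cohort held only 1 to 5 libraries of a condition, so these are descriptions. In M1, whose median was lowest, the injury comparison set 2 5xCHI vehicle libraries against 1 sham vehicle library.

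That sham library was 1 of 9 with a summed member level above 3500 CPM, and these 9 differed from the rest in transcript length. For each library the log2 deviation of each gene from its mean was regressed on log2 transcript length. Members are short, with a median of 1398.5 nucleotides against 2931 for all genes, and 27 of 42 belong to the shortest of 5 equal classes of length. The 9 libraries had slopes from -0.19 to -0.072 log2 units per doubling of length, so their short transcripts read high, and the other 49 had slopes from -0.099 to 0.077. The mean slope was 0.024 ± 0.053 in 5xCHI SB, -0.010 ± 0.066 in 5xCHI vehicle, 0.034 ± 0.020 in sham SB and -0.031 ± 0.10 in sham vehicle mice (SD). The plot of summed level against slope shows both values for each library.

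**Figure D4:**
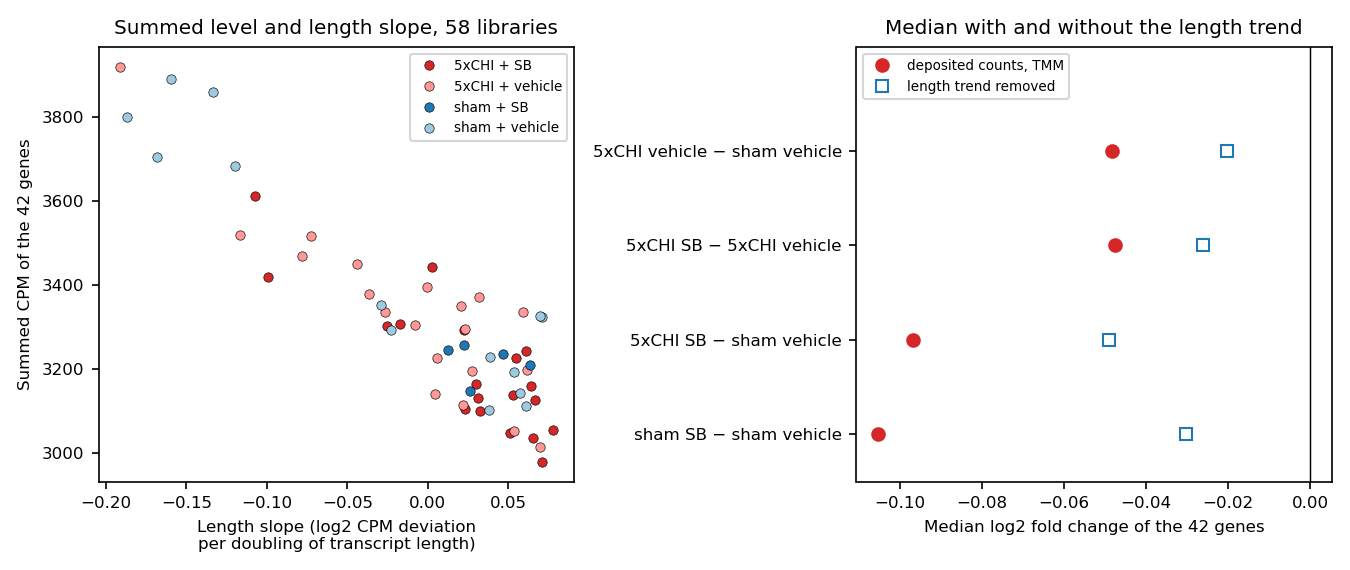
Left, summed CPM of the members against the length slope of each of 58 libraries, coloured by condition. Right, median log2 fold change of the members in 4 comparisons before and after removal of the length trend, where the injury median is -0.048 before and -0.020 after.

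In the shortest of the 5 length classes, all genes together had a median below 0, as the members did. The class median log2 fold change was -0.041 for injury (members in it -0.068), -0.031 for SB in injured mice (members -0.054) and -0.074 for injury with SB (members -0.11). With the trend over length removed from each library, the members' medians were -0.020 for injury (31 of 42 below 0), -0.026 for SB in injured mice (33), -0.049 for injury with SB (34) and -0.030 for SB in sham mice (30). The count at an unadjusted p under 0.05 for injury with SB was then 8 of 42, against 7.39% of all genes. After that correction Psmb7 had -0.078 ± 0.034 for SB in injured mice (unadjusted p = 0.0258, adjusted p = 0.728 by edgeR).

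Leaving out the 4 libraries that stood farthest from the rest on the first 5 principal components (1 female 5xCHI SB, 2 female sham vehicle and 1 male sham vehicle) left 23 of 42 members below 0 for injury, with a median of -0.010. In females that injury median was then 0.021, the opposite sign. For SB in injured mice the same step left 39 members below 0 and a median of -0.053, and for injury with SB 38 and -0.055, with 9 members at an unadjusted p under 0.05 against 4.48% of all genes. Male sham vehicle replicate 4, which is not among the 4, also moved these values. Without it the members' medians were -0.017 for injury, -0.0050 for injury in males, -0.060 for injury with SB, -0.051 for SB in sham mice and -0.0031 for the interaction. Without female sham vehicle replicate 7 the injury median in females was -0.0068. The median for SB in injured mice ran from -0.061 to -0.037 with each library left out, and its 4 members at an unadjusted p under 0.05 became 1 without male 5xCHI SB replicate 3 and 8 without male 5xCHI SB replicate 6. The 10 such members of SB in injured females became 4 without 5xCHI vehicle replicate 9 and 15 without 5xCHI vehicle replicate 10. In injured males alone the SB median was 0.0068 without 5xCHI SB replicate 4 and -0.045 without 5xCHI SB replicate 6.

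Members passed the adjusted test among female cohorts, and none did among male cohorts or between conditions. In females 19 of 42 members differed among cohorts F1 to F4 at an adjusted p under 0.05 by edgeR, where 50.0% of all genes did, and 23 had an unadjusted p under 0.05, against 57.2%, so both shares of the members lay below those of all genes. The strongest were Psma7 (adjusted p = 0.00070), Psmb7 (0.0010) and Psme2 (0.0012). Psma7 averaged 66.6 ± 3.04 CPM in F1 (n = 10), 80.1 ± 11.6 in F2 (n = 6), 70.8 ± 7.61 in F3 (n = 14) and 83.9 ± 5.15 in F4 (SD, n = 5). Its F1 values (61.8 to 72.1 CPM) did not overlap those of F4 (77.6 to 91.0 CPM). Psmb7 had the same order of cohort means, 90.2 ± 7.93 in F1, 111 ± 15.4 in F2, 97.0 ± 10.7 in F3 and 113 ± 6.38 CPM in F4. Psme2 averaged 17.0 ± 1.52 in F1, 21.7 ± 2.78 in F2, 19.2 ± 3.31 in F3 and 23.5 ± 1.92 CPM in F4. The members' median lay 0.15 above F1 in F4 (35 of 42 higher) and 0.14 above F1 in F2 (36 higher) on the log2 scale. Psme3 went the other way, with a fitted -0.16 in F4 and -0.15 in F2.

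In males 0 members and 369 genes (3.83%) differed among cohorts by edgeR, and 4 members had an unadjusted p under 0.05, against 19.9% of all genes. DESeq2 also called 0 members, with 613 genes. The smallest p was that of Psmd11, a regulatory-particle subunit whose phosphorylation is known to raise proteasome activity, at 0.0261 (adjusted p = 0.180). It averaged 70.9 ± 3.82 in M1, 66.5 ± 3.40 in M2, 74.6 ± 3.53 in M3 and 71.2 ± 4.20 CPM in M4. Next were Psmd1 and Psmc1. With the length trend removed, 12 members were called in females, 9 of them among the 19. The labels give the cohorts' names only. Female libraries had length slopes from 0.023 to 0.070 in F1 and from -0.12 to -0.029 in F4. Those of F2 (-0.19 to 0.055) and F3 (-0.17 to 0.077) overlapped both. Library totals ran from 30284083 to 49158277 counts in F1 and from 28316280 to 33265834 in F4. Summed excitatory neuron markers ran from 7173 to 8331 CPM in F1 and from 5546 to 7610 in F4. Psma7, Psmb7 and Psme2 are short (1035.5, 1160 and 878.5 nucleotides). The part of slope, total and markers in their cohort differences was not tested further.

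Across members, cohort took up a median of 21.6% of the variance of log2 CPM beyond sex (all genes 22.9%). Condition took up 10.6% beyond cohort (all genes 7.36%). These shares were not corrected for the number of fitted coefficients, each of which takes up some variance by chance. They are descriptions and do not show an effect of condition. The residual SD was 0.142 on the log2 scale (all genes 0.161).

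After group and cohort means were removed, the median pairwise correlation of the 42 members between libraries was 0.34 over 861 pairs, from -0.66 to 0.90, with 158 pairs below 0. It was 0.58 over 105 pairs of core-particle genes, 0.37 over 136 pairs of regulatory-particle genes and 0.12 over 45 pairs of chaperones, activators and the inhibitor. All of these share the same 58 libraries, depth and scaling, and the difference between the sets was not tested. The transcript length trend of the libraries was not removed here, and its part in the correlations was not tested. The first principal component held 39.6% of the members' variance (25.7% for all genes), and 39 members loaded on it with the same sign, the exceptions being Psmd11, Psme3 and Psme4. Psmb7 lay closest to the others, with a correlation of 0.88 with the mean of the other members, and Psme4, the longest member at 6491 nucleotides, lay farthest at -0.28.

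The second component, 22.7% of the variance (16.2% for all genes), divided the members into 21 and 21, as the plot of loadings against base composition shows. Members with a positive loading had a median transcript GC content of 46.0% and those with a negative one 52.7%, against 51.0% over all genes. At the positive end stood the ATPase Psmc6 (37.0% GC) and the alpha subunit Psma3 (40.8%), and at the negative end Psmd3 (57.1%) and the chaperone Psmd9. The division cut across the particle: alpha-ring genes had a median of 45.7% GC and beta-ring genes 53.0%, and 6 of 7 alpha genes had a positive loading. Its relation to base composition was not tested further.

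**Figure D5:**
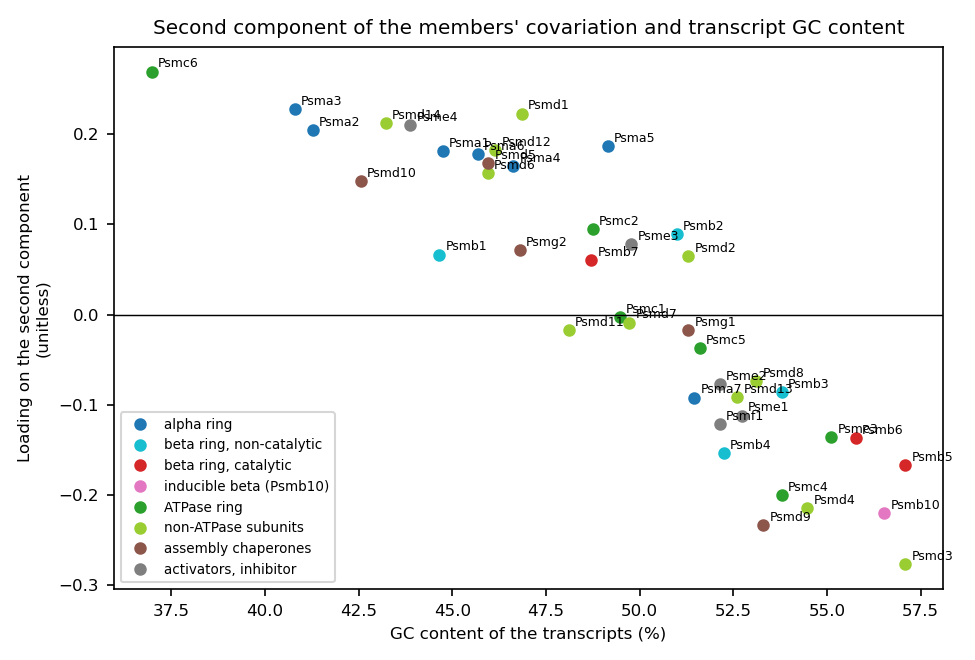
Loading of each member on the second principal component of the members' log2 CPM (58 libraries, group and cohort means removed) against the GC content of its transcripts, coloured by role. The 21 members above 0 have a median GC content of 46.0% and the 21 below 0 a median of 52.7%.

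Other genes of the pathway were read from lists by the same test, and none was called in either main comparison. Of 17 further proteasome components and cofactors, 7 lay above 0 for injury and 8 for SB in injured mice. Sem1, the smallest regulatory-particle subunit, had -0.11 ± 0.065 for injury, and Fbxo7, a binding partner of Psmf1, had -0.10 ± 0.048 for SB. Of 12 genes of the NFE2L1 pathway, 3 lay above 0 for injury and 7 for SB. Nfe2l1 itself averaged 417 CPM and had -0.012 ± 0.036 for injury and 0.043 ± 0.033 for SB. Ddi2, the protease that activates NFE2L1, was counted among the 17 components and cofactors and had 0.042 ± 0.037 for SB. Of 12 ubiquitin genes, 7 lay above 0 for injury and 2 for SB, where Rps27a, a ubiquitin fusion gene, had -0.14 ± 0.062.

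The COP9 signalosome, a complex related to the regulatory particle, had 3 of 10 genes above 0 for injury and 3 for SB, with Cops5 at -0.077 ± 0.034 for SB. The CCT chaperonin, an unrelated ring complex, had 8 of 8 genes below 0 for injury (median -0.030) and 8 of 8 for SB (median -0.046), so this direction was not confined to proteasome genes. Of 4 measured genes of class I antigen processing, Tap2, which carries proteasome products into the endoplasmic reticulum, had -0.17 ± 0.091 for injury and 0.17 ± 0.082 for SB, and B2m had -0.10 ± 0.072 and -0.027 ± 0.065.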

How the data were processed

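Polyadenylated RNA of somatosensory cortex was sequenced from directional libraries, per the labels' protocols. The authors deposited raw counts, 1 table that lists 9636 genes for the 58 libraries. The submitters' processing notes name STAR, featureCounts and DESeq2, and the builds GRCm39 and mm39. Versions, annotation and strand setting are not stated in any source used here. The smallest count is 101, so genes of low count were left out before deposit. Samples of the acute time were not analysed here.

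Tests used edgeR 4.0.16 under R 4.3.3 (TMM, robust quasi-likelihood fit, two-sided, Benjamini-Hochberg over 9636 genes, threshold 0.05). One fit covered the 8 combinations of sex, injury and treatment, plus cohort within sex, with 14 coefficients and 44 residual degrees of freedom. Comparisons over both sexes average the female and male difference. CPM are TMM-scaled, and covariation used log2 CPM with a prior count of 2. DESeq2 1.42.0 was an alternative. The fits were checked on simulated counts with planted differences. These counts were drawn gene by gene without cohort or length trends, so the check does not cover such trends. Libraries were treated as separate animals, and if any shared one, p-values would measure a partly technical spread. The closest pair of libraries had a chi-square per degree of freedom of 9.83, above sampling noise.

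Transcript length and GC content came from GENCODE M21 (GRCm38), a build other than the submitters', so no count was placed by coordinate. Length removal subtracted a lowess trend of log2 deviation on log2 length from each library, for 9550 genes. Other alternatives were size factors of the RLE method, a mean count of at least 1000, no cohort term, a replicate block, leaving out each library and leaving out 4 libraries beyond 3.5 median absolute deviations on the first 5 principal components.

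The members and lists were chosen with earlier results of these data known. The rule for named members takes the catalytic subunits, the 4 of smallest p per direction for injury and for SB in injured mice, 2 per direction for other comparisons, 3 per cohort test and the extremes of level. From each further list it takes the gene of smallest p per direction in these 2 main comparisons. The text gives a selection of the members and genes so taken, and not all of them. Psme1, Psme2, Psmc5 and other examples outside this rule were chosen after their values were seen.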

Additional observations from a re-analysis of the deposited data

Results flagged for a closer look

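In groups of 4 to 10 libraries, the highest or lowest value of each named member was set against the rest of its group, for 27 members in 4 groups. Chance alone sets apart about 1 in 20 of such sets, and 4 of 108 were set apart. The catalytic subunit Psmb5 was at 59.0 CPM in female sham vehicle replicate 1, with the next library of that group at 44.8. The same library held Psmd3 at 146 CPM, with the next at 120. It is also 1 of the 4 libraries far from the rest, and its length slope was -0.19. Its summed oligodendrocyte markers, at 20476 CPM, were the highest of the 58 libraries, and its excitatory neuron markers, at 4686 CPM, the lowest. Psmb1 was at 103 CPM in male 5xCHI SB replicate 6, with the next at 93.8. Psmg2 was low, at 9.58 CPM, in male 5xCHI vehicle replicate 5, with the next at 12.4.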

How the results depend on the processing

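No gene was called in any comparison of conditions under any alternative run. For SB in injured mice the members' median log2 fold change stayed between -0.053 and -0.025 over 8 settings, and for injury with SB against sham vehicle between -0.11 and -0.049. For injury it ran from -0.055 to -0.010, for injury in females it was 0.021 without the 4 far libraries, and the median of the sex difference of the injury effect and of the injury by SB interaction also changed sign. With each library left out in turn, the medians ran from -0.071 to -0.017 for injury, from -0.12 to -0.060 for injury with SB and from -0.12 to -0.051 for SB in sham mice.

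Some members changed sign. For injury, Psme4 was at -0.013 with the replicate block, -0.019 with the length trend removed, -0.036 without the 4 far libraries, -0.028 with both steps and between -0.019 and 0.060 with each library left out. Without the 4 far libraries Psma7 was at 0.0036 (-0.084 with all libraries) and Psmb4 at 0.0057 (-0.11) for injury, and Psmf1 at -0.00089 for SB in injured mice. Psmd9 ran from -0.0089 to 0.032 for SB in injured mice with each library left out. For injury with SB, Psme3 was at -0.00080 among genes with a mean count of at least 1000, at -0.00056 without the 4 far libraries and between -0.0033 and 0.018 with each library left out. For SB in injured females Psme3 ran from -7.4e-06 to 0.028. The cause was not tested.

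Among female cohorts the called members numbered 12 with the length trend removed. Among male cohorts DESeq2 called 613 genes, the fit without the 4 far libraries 1258, that fit with the length trend removed 1186 with 1 member, and the fits without each library 28 to 769. Same-numbered samples of different groups in a sex had a median correlation of -0.014, with 19 of 62 pairs above 0.1, so the numbers do not pair the samples. A replicate block left 2602 genes and 2 members called among female cohorts, where Psmb7 (adjusted p = 0.069 by edgeR) and Psme2 (0.082) were no longer called and Psma7 was (0.030), and 90 genes among male cohorts, and members called between conditions stayed at 0.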
